A study of Canis lupus familiaris with 15 samples.

Results

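SGCE and TFPI2 are near neighbours on dog chromosome 14, and the genes of this region belong to a cluster that is imprinted in other mammals. Both were followed across 3 canine mammary tumour cell lines on 15 two-dye cDNA arrays. They were picked by symbol, with their ratios in these lines already known, and are 2 of 5246 named genes. Each is read by 1 probe of the 22176 on the array, and both probes had a value on all 15 arrays. P114 was grown from an anaplastic carcinoma of the mammary gland, CMT-U229 from a benign mixed tumour and CMT-U335 from an osteosarcoma that arose in the mammary gland. RNA was taken near confluence, with no treatment named in the labels. Each array carried a pair of lines, giving 5 arrays of P114 over CMT-U335, 5 of P114 over CMT-U229 and 5 of CMT-U229 over CMT-U335. Each line stands for a single tumour, so a difference between lines is not shown to be one between tumour types.

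SGCE encodes epsilon-sarcoglycan, a single-pass membrane glycoprotein related to the sarcoglycans of the muscle dystrophin complex but made in many tissues. In humans and mice it is read from the paternal copy, and its loss in humans causes myoclonus-dystonia. TFPI2 encodes a secreted Kunitz-type inhibitor that binds the extracellular matrix and blocks plasmin and related serine proteases. It is often silenced by promoter methylation in human tumours and is imprinted in mouse placenta. A ratio of total RNA between lines does not tell the parental copies apart, and fewer cells with a transcript cannot be told from less transcript per cell.

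Every ratio here is a log2 ratio of the first line over the second. The deposited values were read as Cy5 over Cy3 on a log2 scale, since the labels name Cy5 first and the file states neither. The direction is therefore likely and not settled, and if the dyes were the other way round every higher value would be lower. Within a pair, probes correlated at 0.20 to 0.50 between arrays with like dyes, and at -0.35 to 0.00015 between arrays with swapped dyes, as deposited. Whether the 5 arrays of a pair came from separate cultures is unclear, since they are labelled biological replicates but the design mentions swapped dyes and a minimum of 1 such replicate. The p-values therefore measure the spread between arrays, which may in part be technical. No intensities were used here, so only ratios and no levels are known, and a defining marker of a line could not be shown to be absent. 

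SGCE was lowest in P114, intermediate in CMT-U229 and highest in CMT-U335. Its ratio in P114 over CMT-U335 was -2.85, -2.30, -2.76, -2.33 and -2.84 on replicates 1 to 5. All 5 arrays lay well below 0, between 4.92-fold and 7.20-fold lower in P114. The mean was -2.61 ± 0.28 (SD, n = 5), a 6.12-fold lower level in P114. The ratio in P114 over CMT-U229 was -0.98, -0.80, -0.82, -1.24 and -1.18, again below 0 on every array but far smaller. The mean of -1.01 ± 0.20 (SD, n = 5) made SGCE 2.01-fold lower in P114. CMT-U229 over CMT-U335 gave -1.49, -1.69, -1.50, -1.58 and -1.49, with a mean of -1.55 ± 0.09 (SD, n = 5), or 2.93-fold lower in CMT-U229. The 5 arrays of this pair almost coincided: 6.35% of genes had a smaller SD. Taken as the first line over the second and without scaling the arrays, the SGCE ratios of the 3 pairs did not overlap. The share of all genes that separate in this way was not counted. The lowest value in P114 over CMT-U229, -1.24, lay above the highest in CMT-U229 over CMT-U335, -1.49.

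TFPI2 followed another order, with CMT-U335 far above both other lines. Its ratio in P114 over CMT-U335 was -2.36, -1.54, -2.75, -2.42 and -3.18 on replicates 1 to 5, below 0 throughout. The mean was -2.45 ± 0.60 (SD, n = 5), 5.45-fold lower in P114, but single arrays ranged from 2.91-fold to 9.05-fold. CMT-U229 over CMT-U335 gave -2.38, -3.13, -2.95, -2.65 and -2.94, likewise all below 0. With a mean of -2.81 ± 0.30 (SD, n = 5), TFPI2 was 7.01-fold lower in CMT-U229. Between P114 and CMT-U229 no such gap was seen, as the ratio was 0.47, -0.19, 0.0093, 0.24 and 1.23 in P114 over CMT-U229. Replicate 2 lay below 0, replicate 3 at almost 0 and replicate 5 far above it. The mean of 0.35 was smaller than its SD of 0.55 (n = 5), and without replicate 5 it was 0.13. TFPI2 was thus the less steady gene of the pair: 95.3% of genes had a smaller SD in P114 over CMT-U335 and 92.9% in P114 over CMT-U229.

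**Figure D1:**
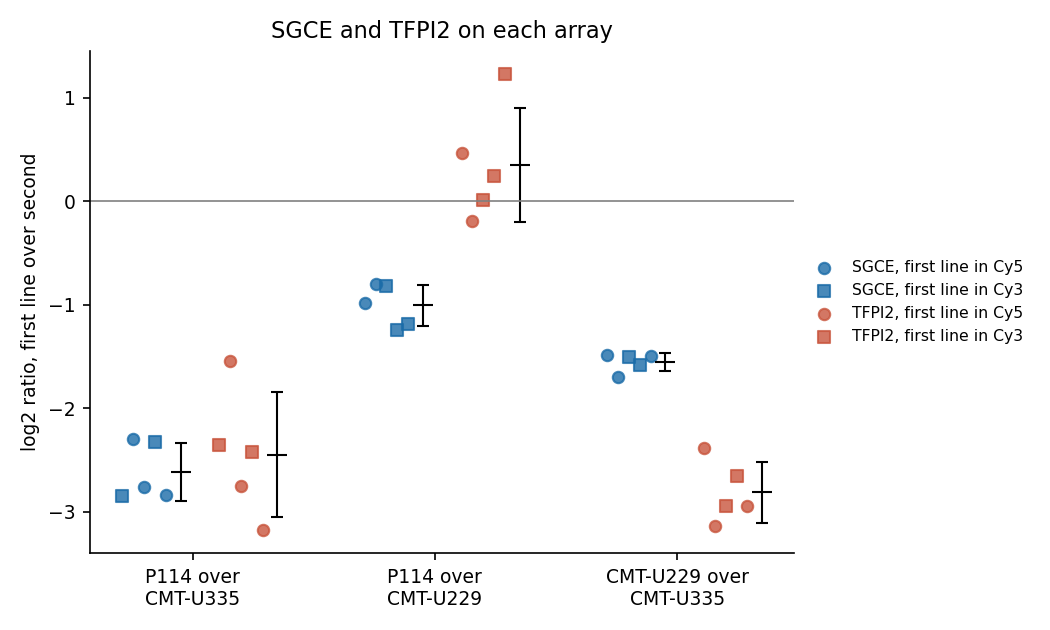
The log2 ratio of SGCE (blue) and TFPI2 (red) on each of 15 arrays is plotted by pair of lines, with circles where the first-named line was in Cy5 and squares where it was in Cy3, and with the mean and SD over 5 arrays in black. SGCE lies below 0 in all 3 pairs at means of -2.61, -1.01 and -1.55, whereas TFPI2 lies near -2.45 and -2.81 against CMT-U335 and scatters around 0 between P114 and CMT-U229.

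Fitted over the closed loop of 15 arrays, the SGCE level of P114 was 16.6% of that of CMT-U335 (log2 -2.59 ± 0.073 SE) and that of CMT-U229 was 33.7% (-1.57 ± 0.073). The TFPI2 level of P114 was 18.3% of that of CMT-U335 (-2.45 ± 0.16) and that of CMT-U229 was 14.3% (-2.81 ± 0.16). Read with the dyes the other way round, SGCE would instead be 6.04-fold higher in P114 and 2.97-fold higher in CMT-U229 than in CMT-U335, and TFPI2 5.47-fold and 7.0-fold higher. The direct and indirect routes around the loop gave nearly the same answer. For SGCE the direct ratio of P114 over CMT-U335 was -2.61, and the sum of the ratios through CMT-U229 was -2.56, a gap of -0.056 ± 0.16 (SE). For TFPI2 these were -2.45 and -2.46, a gap of 0.0095 ± 0.35. The median absolute gap over all genes was 0.084. These sums share the RNA of the lines and describe how well the arrays fit together.

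The gap between both genes changed with the pair. SGCE minus TFPI2 was -0.17 ± 0.45 (SD, n = 5) in P114 over CMT-U335, smaller than the spread between arrays, with SGCE the lower gene on 3 arrays. The difference was -1.36 ± 0.70 in P114 over CMT-U229, and SGCE was the lower gene on 5 of 5 arrays. It was 1.26 ± 0.26 in CMT-U229 over CMT-U335, and SGCE was the lower gene on 0 of 5. The neighbours thus stood farthest apart in the pairs that hold CMT-U229. The signs differ because CMT-U229 is the second line of P114 over CMT-U229 and the first of CMT-U229 over CMT-U335. Both differences describe the same feature, SGCE being high relative to TFPI2 in CMT-U229, and both pairs share its RNA.

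Ranked by the size of the mean ratio, which does not depend on how the dyes are read, SGCE stood 12th and TFPI2 18th of 5246 genes in P114 over CMT-U335. TFPI2 ranked 11 and SGCE 61 in CMT-U229 over CMT-U335. The ranks were lower in P114 over CMT-U229, at 109 for SGCE and 776 for TFPI2. These ranks are part of why the genes were chosen and carry no test.

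Both dye orders gave the same side of 0 in each mean. SGCE in P114 over CMT-U335 averaged -2.63 on the 3 arrays with P114 in Cy5 and -2.59 on the 2 with P114 in Cy3, and TFPI2 averaged -2.49 and -2.39. For P114 over CMT-U229, SGCE averaged -0.89 on the 2 arrays with P114 in Cy5 and -1.08 on the 3 with P114 in Cy3, and TFPI2 averaged 0.14 and 0.50. Both SGCE values in P114 over CMT-U335 that lay nearest 0, replicates 2 and 4, came from the arrays with the narrowest spread of that pair. The SD over all probes was 0.503 on replicate 2 and 0.501 on replicate 4, and 0.574 to 0.636 on the others. With every array scaled to the same spread the SGCE mean was -2.49 ± 0.24 (SD), and replicate 4, at -2.77, then lay lowest. Such scaling widened the spread of CMT-U229 over CMT-U335, where the SGCE mean became -1.57 ± 0.38, with arrays between -2.08 and -1.23, and the TFPI2 mean -2.87 ± 0.85. Scaled values of SGCE in P114 over CMT-U229, between -1.65 and -0.78, overlapped that range. The separation of these pairs and the close match of the 5 arrays of CMT-U229 over CMT-U335 thus hold only without that scaling.

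The other measured genes of the region were examined next, beginning with those that lie between both genes. In the RefSeq gene order of assembly UU_Cfam_GSD_1.0, 6 protein-coding genes lie between TFPI2 and SGCE, and 2 of them were measured. COL1A2, which encodes a chain of type I collagen, moved strongly, and BET1, which encodes a vesicle fusion protein, hardly did. COL1A2 in P114 over CMT-U335 was -1.49, -0.79, -1.26, -1.76 and -1.63 on replicates 1 to 5. It was 2.61-fold lower in P114 (-1.39 ± 0.14 SE, adjusted p = 0.00062, limma), on the same side as both neighbours. For CMT-U229 over CMT-U335 it ranged from -4.01 to -2.43 and was 10.5-fold lower in CMT-U229 (-3.39 ± 0.22, adjusted p = 0.00021, limma). For P114 over CMT-U229 it ranged from 0.99 to 3.08 and was 4.18-fold higher in P114 (2.06 ± 0.30, adjusted p = 0.0083, limma), where SGCE was lower in P114. All 3 COL1A2 probes pointed the same way in each pair, although in P114 over CMT-U229 they spread from 1.45 to 2.81. With the arrays that look like dye swaps averaged, the call of COL1A2 in P114 over CMT-U229 was lost (adjusted p = 0.094).

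BET1 was at -0.06 ± 0.11 (SE) in P114 over CMT-U335 (adjusted p = 0.75, limma) and 0.22 ± 0.12 in P114 over CMT-U229 (adjusted p = 0.41, limma). For CMT-U229 over CMT-U335 it was 1.23-fold lower in CMT-U229 (-0.29 ± 0.075, adjusted p = 0.037, limma), with all 5 arrays below 0 between -0.48 and -0.14. That call was lost without replicate 2, 3, 4 or 5, at adjusted p = 0.054 to 0.13. Of the measured genes between TFPI2 and SGCE, 1 thus had large ratios of both signs and 1 had small ones.

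Of 28 genes in the order of the matching human region, 10 were measured beside SGCE and TFPI2. In P114 over CMT-U335, where limma called 22.3% of all genes, 1 of the 10 rose and 2 fell. The proteasome subunit gene SEM1 rose (0.42 ± 0.095 SE, adjusted p = 0.017, limma), and COL1A2 and the asparagine synthetase gene ASNS fell, ASNS at -0.55 ± 0.11 (adjusted p = 0.012, limma). SEM1 lost its call without replicate 1 or 4 (adjusted p = 0.057 to 0.058), and ASNS in 1 fit over all 15 arrays (adjusted p = 0.29). On the arrays of P114 over CMT-U229, where 7.3% of genes were called, COL1A2 rose and the other 9 were not called. On the arrays of CMT-U229 over CMT-U335, with 17.3% called, COL1A2 and BET1 fell and 8 were not called. The medians of the 10 genes, at -0.02, -0.08 and -0.01 for the pairs in this order, lay near those of all genes at -0.02, -0.01 and -0.01.

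The nearest measured genes beyond SGCE are the paraoxonases PON1, PON3 and PON2, enzymes that hydrolyse lactones and oxidised lipids. None was called by limma in any pair, and at an unadjusted p under 0.05 limma had 1 of the 3 in CMT-U229 over CMT-U335 and 0 in the pairs with P114. PON1 was at 0.02 ± 0.074 (SE), -0.12 ± 0.082 and 0.14 ± 0.062 in P114 over CMT-U335, P114 over CMT-U229 and CMT-U229 over CMT-U335. PON3 lay between -0.06 and 0.04 and PON2 between -0.22 and -0.10 over the same pairs. The dynein chain gene DYNC1I1 stood at 0.02, -0.10 and 0.09 and the mitochondrial carrier gene SLC25A13 at 0.0050, -0.07 and 0.03. TAC1, the precursor of substance P, was too scattered to read. Its ratio ran from -2.43 to 3.99 on single arrays of P114 over CMT-U335 and from -1.10 to 4.54 on those of CMT-U229 over CMT-U335.

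A wider window of 40 protein-coding genes on each side, in the RefSeq order, held 25 measured genes besides SGCE and TFPI2. SEM1 of the human-order list was not among these 25. Among them 7 fell and 0 rose in CMT-U229 over CMT-U335, where 8.58% of all genes fell and 8.77% rose. The arrays of P114 over CMT-U229 had 5 that rose and 0 that fell, where 3.32% of all genes rose and 3.98% fell. Those of P114 over CMT-U335 had 3 that rose and 4 that fell, against 7.89% and 14.4% of all genes. Beside COL1A2 and BET1 those called in CMT-U229 over CMT-U335, named after their values were seen, were the drug transporter genes ABCB4 (-1.47 ± 0.135 SE) and ABCB1 (-0.59 ± 0.13), the metalloreductase genes STEAP1 (-1.09 ± 0.13) and STEAP2 (-0.45 ± 0.084), and ANKIB1 (-0.67 ± 0.12). The 5 that rose in P114 over CMT-U229 were STEAP1 (3.86 ± 0.10, or 14.5-fold), COL1A2, STEAP2 (2.06 ± 0.20), ABCB1 (1.89 ± 0.12) and ABCB4 (0.56 ± 0.097), whereas SGCE was lower in P114 there. STEAP1 (2.88 ± 0.15), STEAP2 (1.28 ± 0.16) and ABCB1 (0.99 ± 0.18) were the 3 that rose in P114 over CMT-U335, on the opposite side from TFPI2 and SGCE. The 4 that fell in that pair, on the side of TFPI2 and SGCE, were COL1A2, ABCB4 (-0.95 ± 0.17), ANKIB1 (-0.57 ± 0.075) and ASNS. The median of the 25 genes was 0.0018, 0.06 and -0.06 in P114 over CMT-U335, P114 over CMT-U229 and CMT-U229 over CMT-U335, close to 0 in each pair.

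**Figure D2:**
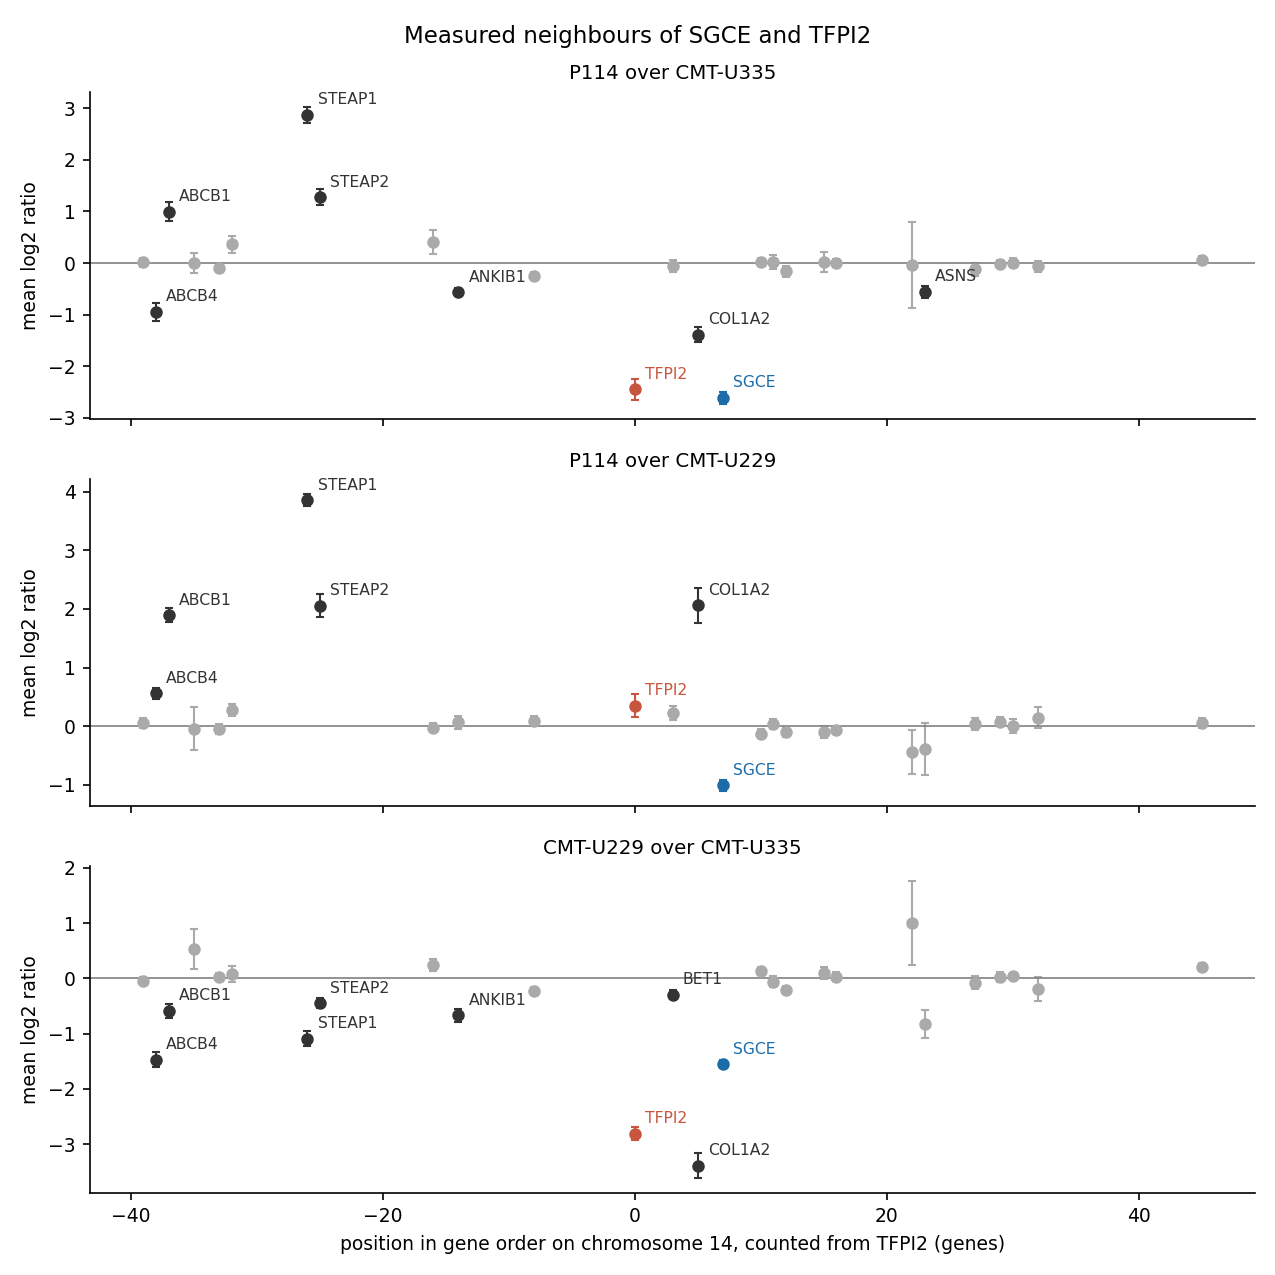
Mean log2 ratios with SE over 5 arrays are plotted for the 27 measured genes within 40 protein-coding genes of TFPI2 or SGCE, in gene order along chromosome 14 and not to physical scale, with a panel for each pair of lines. TFPI2 is red, SGCE blue, other genes black and named where limma's adjusted p lay under 0.05 and grey otherwise. Most genes sit near 0, and COL1A2 stands at -1.39, 2.06 and -3.39 in the panels from top to bottom. STEAP1 lies farthest from 0 in the top and middle panels, at 2.88 and 3.86.

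Other imprinted genes were sparse on the array. Of 29 listed from other clusters 4 were measured, namely IGF2R, GNAS, SLC22A18 and COPG2. COPG2, a coat protein gene of the Golgi next to the imprinted MEST gene in humans, fell in CMT-U229 over CMT-U335 (-0.36 ± 0.084 SE, adjusted p = 0.027, limma), and the other 3 were not called in this pair. The COPG2 call was lost without replicate 2, 3, 4 or 5 (adjusted p = 0.063 to 0.098). None of the 4 was called by limma in the pairs with P114, where 22.3% (P114 over CMT-U335) and 7.3% (P114 over CMT-U229) of all genes were called. The share in CMT-U229 over CMT-U335 was 17.3%, and with 4 genes such counts are near the shares of all genes. Of the 4, at an unadjusted p under 0.05 limma had 1 in P114 over CMT-U335 and 0 in P114 over CMT-U229. The ratios of all 4 genes over the 3 pairs lay between -0.47 and 0.17, far from those of SGCE.

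The measured genes around the dystrophin complex had smaller ratios than SGCE. SGCA was the only other sarcoglycan gene measured, so the array does not show how the remaining sarcoglycans behaved. Of 24 genes for sarcoglycans, the dystrophin complex and enzymes that glycosylate dystroglycan, 9 were measured. The syntrophin gene SNTB2, whose product is an adaptor of the complex, fell in P114 over CMT-U335 (-0.62 ± 0.11 SE, adjusted p = 0.0058, limma) and in P114 over CMT-U229 (-0.45 ± 0.10, adjusted p = 0.044, limma). DAG1, which encodes dystroglycan, the matrix receptor at the core of the complex, fell in P114 over CMT-U229 (-0.44 ± 0.078, adjusted p = 0.018, limma). The SNTB2 and DAG1 calls in P114 over CMT-U229 were each lost without replicate 1, 2, 3 or 5, at adjusted p = 0.092 to 0.13 for SNTB2 and 0.063 to 0.086 for DAG1. None of the 9 was called by limma in CMT-U229 over CMT-U335, where SGCE differed 2.93-fold, and 0 had an unadjusted p under 0.05. The counts of 1, 2 and 0 called of 9 in P114 over CMT-U335, P114 over CMT-U229 and CMT-U229 over CMT-U335 stand beside 22.3%, 7.3% and 17.3% of all genes. The muscle sarcoglycan gene SGCA lay between -0.03 and 0.05 in the 3 pairs. Median ratios of the 9 genes were 0.01, -0.0088 and 0.07 in P114 over CMT-U335, P114 over CMT-U229 and CMT-U229 over CMT-U335.

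Among genes of the tissue factor and plasmin pathway, 9 of 21 were measured and 2 were called in any pair. Calls numbered 2, 1 and 2 of 9 in P114 over CMT-U335, P114 over CMT-U229 and CMT-U229 over CMT-U335, close to the 22.3%, 7.3% and 17.3% of all genes called there. PROS1, the gene of protein S, a cofactor in the shutdown of clotting, fell 10.2-fold in P114 over CMT-U335 (-3.36 ± 0.16 SE, adjusted p = 3.0e-05, limma) and 9.55-fold in CMT-U229 over CMT-U335 (-3.26 ± 0.12, adjusted p = 3.5e-05, limma). It was at 0.10 ± 0.20 in P114 over CMT-U229 (adjusted p = 0.89, limma), so its order of lines was that of TFPI2. PLG, which encodes the precursor of the protease that TFPI2 blocks, moved the other way in both pairs with CMT-U335. It rose in CMT-U229 over CMT-U335 (1.69 ± 0.25, adjusted p = 0.0043, limma), from 1.04 to 2.87 on single arrays, and in P114 over CMT-U335 (0.77 ± 0.18, adjusted p = 0.021, limma). PLG fell in P114 over CMT-U229 (-0.43 ± 0.080, adjusted p = 0.023, limma). The PLG call in P114 over CMT-U335 was lost without replicate 1, 3 or 4 (adjusted p = 0.051 to 0.070). That in P114 over CMT-U229 was lost without replicate 1, 3, 4 or 5 (adjusted p = 0.055 to 0.10). The paralogue TFPI, which inhibits tissue factor, was not called and lay at -0.04, -0.03 and -0.16 in P114 over CMT-U335, P114 over CMT-U229 and CMT-U229 over CMT-U335.

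Of 16 Kunitz-domain and matrix protease genes 5 were measured, all of them inhibitors or Kunitz-domain proteins. TIMP1, an inhibitor of matrix metalloproteases, rose in P114 over CMT-U335 (1.30 ± 0.15 SE, adjusted p = 0.0011, limma) and in P114 over CMT-U229 (1.22 ± 0.19, adjusted p = 0.011, limma), thus on the opposite side from TFPI2 in the pair with CMT-U335. With the apparent dye swaps averaged the second call was lost (adjusted p = 0.17). APLP2, a Kunitz-domain relative of the amyloid precursor, rose in P114 over CMT-U335 (0.86 ± 0.095, adjusted p = 0.00086, limma) and in P114 over CMT-U229 (0.47 ± 0.10, adjusted p = 0.038, limma), the second call being lost without replicate 1, 2, 3 or 5 (adjusted p = 0.12 to 0.13). APP itself fell in P114 over CMT-U229 (-0.67 ± 0.075, adjusted p = 0.0027, limma). TIMP3 rose in CMT-U229 over CMT-U335 (0.44 ± 0.12, adjusted p = 0.047, limma), but its call was lost whichever array was left out (adjusted p = 0.063 to 0.13), and its 4 probes spread from 0.06 to 0.84. Its probes disagreed outright in P114 over CMT-U335, where they ranged from -1.06 to 0.86 with both ends called by limma. The list had 3 genes raised and 0 fallen in P114 over CMT-U335, 2 raised and 1 fallen in P114 over CMT-U229, and 1 raised and 0 fallen in CMT-U229 over CMT-U335. Of all genes 7.89%, 3.32% and 8.77% rose and 14.4%, 3.98% and 8.58% fell in these pairs.

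Of 25 genes that write or read DNA methylation, or keep imprints, 12 were measured, and limma called 3 in P114 over CMT-U335, 2 in P114 over CMT-U229 and 1 in CMT-U229 over CMT-U335, beside 22.3%, 7.3% and 17.3% of all genes. EED, a subunit of the Polycomb complex that methylates histone H3, rose in CMT-U229 over CMT-U335 on every array, from 0.96 to 1.14 (1.04 ± 0.064 SE, adjusted p = 0.00016, limma). It rose in P114 over CMT-U335 (0.51 ± 0.093, adjusted p = 0.0076, limma) and fell in P114 over CMT-U229 (-0.47 ± 0.086, adjusted p = 0.020, limma), the last call being lost without replicate 1, 2, 3 or 5 (adjusted p = 0.062 to 0.088). The methyl-CpG-binding protein gene MBD2 rose in P114 over CMT-U335 (0.46 ± 0.10, adjusted p = 0.015, limma) and in P114 over CMT-U229 (0.51 ± 0.10, adjusted p = 0.031, limma). MBD2 lost the first call without replicate 3 (adjusted p = 0.055) and the second without replicate 1, 2 or 3 (adjusted p = 0.082 to 0.12). DNMT1, the maintenance methyltransferase, fell in P114 over CMT-U335 by 0.28 on the log2 scale (adjusted p = 0.047, limma), a call lost whichever array was left out (adjusted p = 0.064 to 0.15). Its 3 probes differed in sign in that pair, at -0.33, -0.65 and 0.15.

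**Figure D3:**
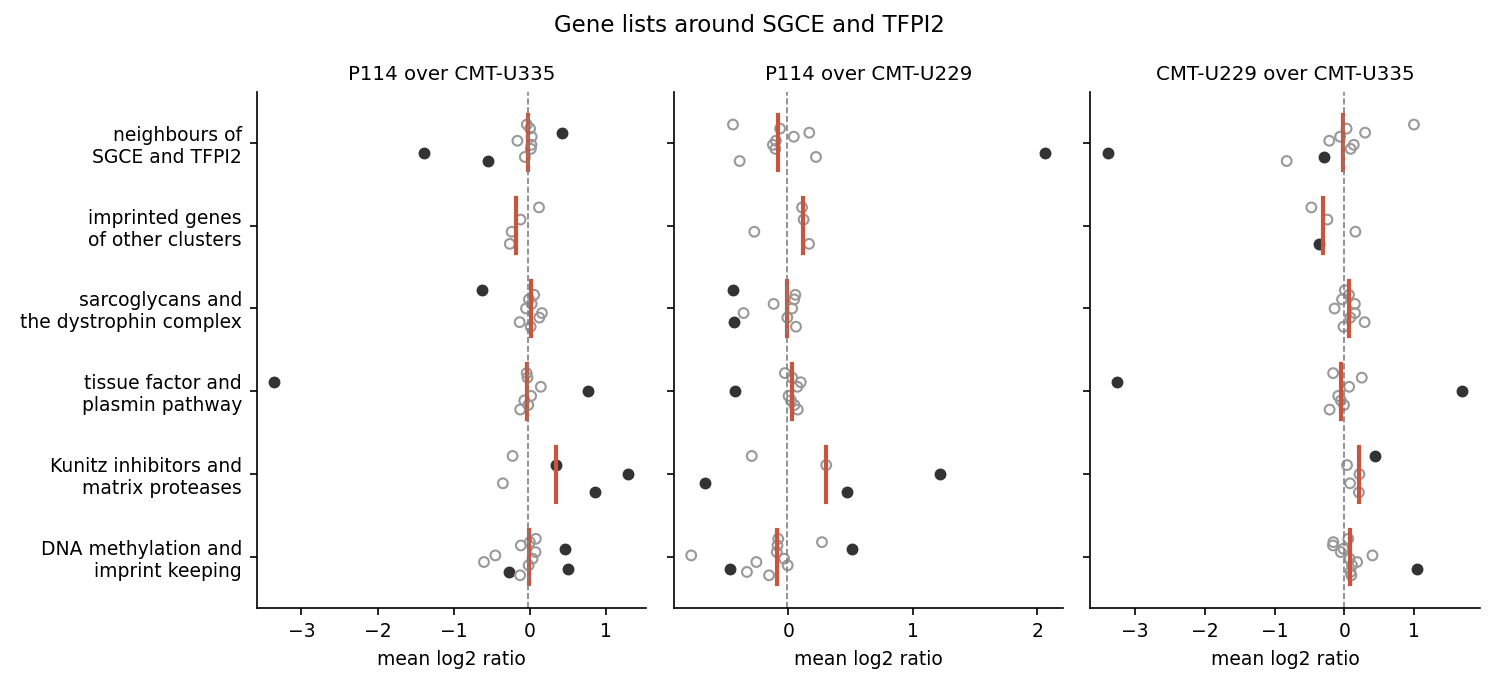
Each point is the mean log2 ratio over 5 arrays of a measured gene, SGCE and TFPI2 left out, for the 6 gene lists (rows) and the 3 pairs of lines (panels). Filled points had a limma adjusted p under 0.05, red bars are list medians and the dashed line is the median of all genes. List medians lie between -0.30 and 0.34, and PROS1 at -3.36 and COL1A2 at -3.39 are the points farthest from 0.

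Markers of cell types were counted in the same pairs, in which 7.89%, 3.32% and 8.77% of all genes rose and 14.4%, 3.98% and 8.58% fell (P114 over CMT-U335, P114 over CMT-U229 and CMT-U229 over CMT-U335). Among epithelial genes 6 of 13 were measured, and EPCAM was highest in P114 and lowest in CMT-U335, at 3.55 ± 0.15 (SE), 1.80 ± 0.099 and 1.78 ± 0.14 in P114 over CMT-U335, P114 over CMT-U229 and CMT-U229 over CMT-U335. For these pairs in that order 4, 2 and 3 of the 6 rose and 1, 0 and 0 fell. Among mesenchymal genes 8 of 15 were measured, of which 2, 4 and 0 rose and 3, 0 and 5 fell. Those lower in CMT-U229 than in CMT-U335 were COL1A2, S100A4 (-1.58), FBLN2 (-1.47), DCN (-0.81) and ZEB1 (-0.57), on the side of SGCE and TFPI2. In P114 over CMT-U229 the list did not follow SGCE, since its median was 0.80, with 4 higher and 0 lower. In P114 over CMT-U335, where SGCE and TFPI2 were lower in P114, the list was mixed, with a median of -0.28. COL3A1 (0.69) and FN1 (1.18) rose there and 3 fell, COL1A2 (-1.39) and ZEB1 (-0.91) among them. Vimentin, VIM, was not called in any pair. Of 7 measured myoepithelial genes 2, 2 and 1 rose and 1, 2 and 2 fell. In CMT-U229 over CMT-U335 MYLK was highest at 2.22, the lowest gene was at -1.20 and the list median was -0.05. Of 4 osteoblast genes, COL1A2 among them, 2, 2 and 1 rose and 1, 0 and 1 fell, and SPP1, the gene of osteopontin, was higher in P114 than in CMT-U335 by 4.12 although CMT-U335 came from an osteosarcoma. Of 5 leukocyte genes 1, 1 and 0 rose, CD14 in both pairs with P114. ACTN2, at -0.31 in P114 over CMT-U335, was the only call among 5 muscle genes. None of 4 endothelial genes was called by limma, nor had any an unadjusted p under 0.05. The part of cell type in the ratios of SGCE and TFPI2 was not tested.

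The genes most like SGCE and TFPI2 were found by Pearson's r of the log2 ratios over all 15 arrays, among 5244 other genes measured on every array. The arrays fall into 3 pairs and share their RNA and their spread, so r largely follows the 3 pair means and is a description. SGCE and TFPI2 correlated at r = 0.65, which placed TFPI2 at rank 219 for likeness to SGCE and SGCE at rank 464 for likeness to TFPI2. Of the neighbours between them, COL1A2 correlated at 0.91 with TFPI2 (rank 42) and at 0.43 with SGCE (rank 765).

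Closest to SGCE was LOC403708 (r = 0.92), a locus that RefSeq lists as a pseudogene on chromosome X with the cathepsin L synonym CTSL. Whether its probe reads this locus or another copy was not tested. It was at -1.35 ± 0.11 (SE), -0.34 ± 0.11 and -0.80 ± 0.077 in P114 over CMT-U335, P114 over CMT-U229 and CMT-U229 over CMT-U335. HIBADH, an enzyme of valine breakdown whose gene also lies on chromosome 14, followed at r = 0.90, with -1.63 ± 0.13, -0.37 ± 0.089 and -1.09 ± 0.11. The other three were PCMT1, a protein repair methyltransferase (r = 0.89), TAMM41, a mitochondrial lipid synthesis enzyme (0.89), and ZEB1, a transcription factor of mesenchymal cells (0.89). All 5 had mean ratios of the same sign as SGCE, but smaller. In P114 over CMT-U229 limma called PCMT1 alone of them (-0.40, adjusted p = 0.035, limma). That call was lost without replicate 1, 2, 4 or 5 (adjusted p = 0.070 to 0.14). In this pair TAMM41 lay at -0.0025, with arrays on both sides of 0, and ZEB1 at -0.17.

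Closest to TFPI2 was CTSK, the collagen-degrading protease cathepsin K (r = 0.97), at -3.29 ± 0.25 (SE), 0.64 ± 0.077 and -3.98 ± 0.23 in P114 over CMT-U335, P114 over CMT-U229 and CMT-U229 over CMT-U335. NMI, an interferon-induced partner of STAT and Myc proteins, had r = 0.96. PCOLCE, which speeds the trimming of procollagen, had r = 0.95 and the ratios -1.96 ± 0.16, 0.26 ± 0.088 and -2.11 ± 0.17. PROS1 and ACTL6A, an actin-like subunit of chromatin remodelling complexes, also had r = 0.95. The 2 probes of ACTL6A differed in size, at -1.06, 0.69 and -1.58 and at -0.30, 0.15 and -0.29 in the same pairs. Only the former probe was called by limma. No gene was among the 5 closest to both SGCE and TFPI2.

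**Figure D4:**
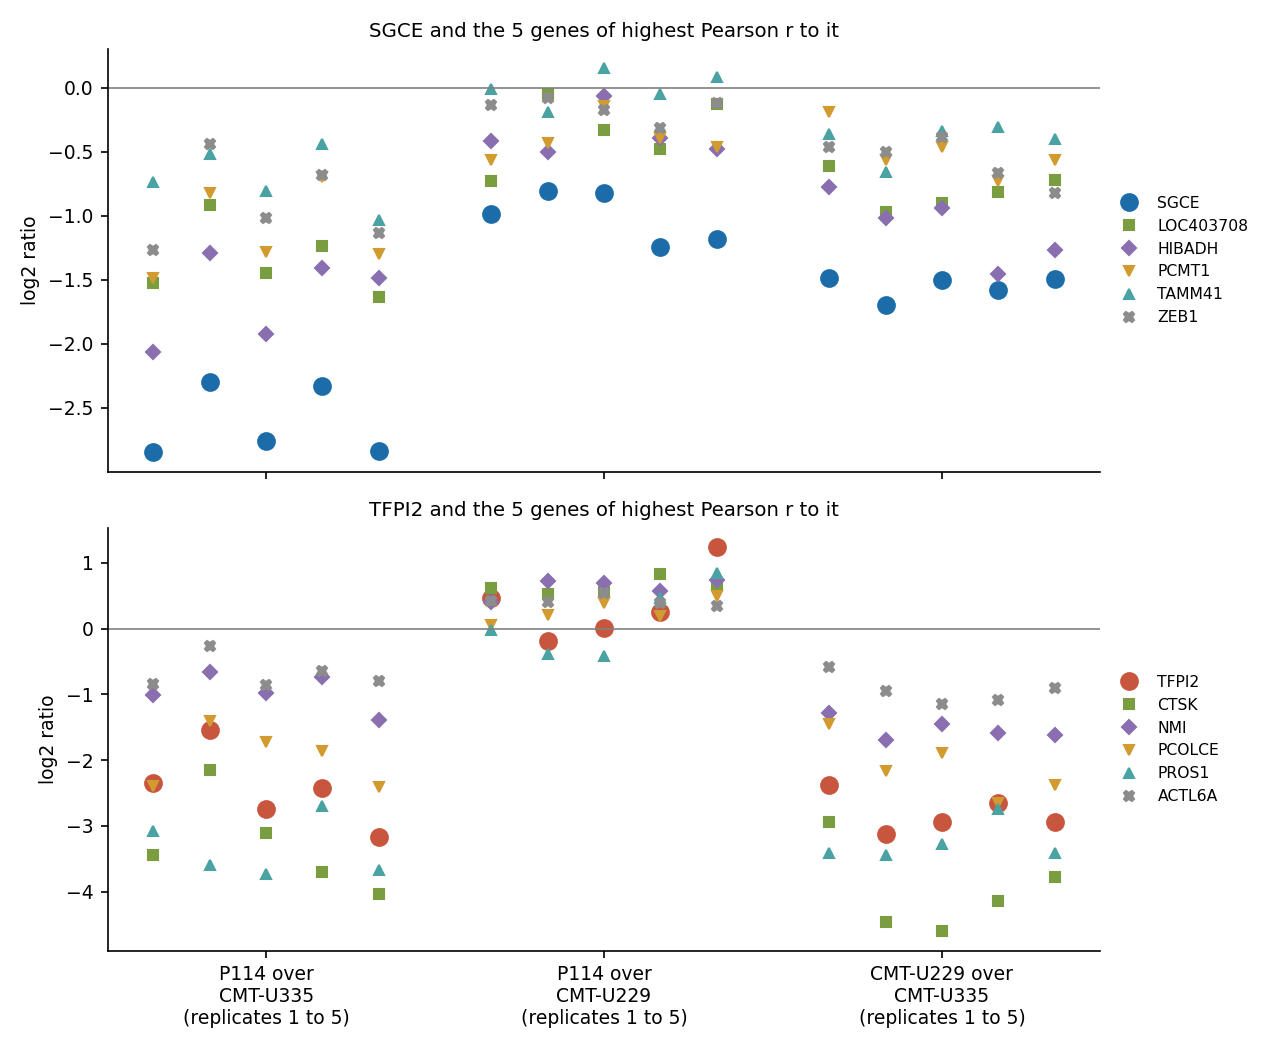
Log2 ratios on each of 15 arrays are shown for SGCE with its 5 closest genes (top) and TFPI2 with its 5 closest genes (bottom), by pair of lines and, within a pair, replicates 1 to 5 from left to right. SGCE (large blue circles) is the lowest gene of its panel on every array, whereas TFPI2 (large red circles) lies between PROS1 or CTSK below and NMI or ACTL6A above on most arrays against CMT-U335 and near 0 between P114 and CMT-U229.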

How the data were processed

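Log2 ratios of 2 dyes were deposited for 15 cDNA arrays, already normalized and log transformed by the authors per the series design text. How they were normalized, with which log base and which dye on top is not stated here. A base of 2 was taken because the largest value, 12.4, would be beyond the range of a 16-bit scan as a natural log. Array medians lay between -0.0067 and 0.013. RNA was amplified by T7 transcription with aminoallyl nucleotides, per the labels' protocols.

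Of the probes, 7694 carry 1 symbol in the platform annotation, 0 carry several and 14482 carry none. For 7340 probes the symbol was brought up to date by Entrez identifier from the RefSeq gene table of UU_Cfam_GSD_1.0. Signs were turned by the dyes so that the first line of the title was on top, and a gene was the mean of its probes. Genes needed values on 3 of 5 arrays.

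The mean ratio of each gene was tested against 0 in limma 3.58.1 under R 4.3.3 (lmFit and eBayes, two-sided), with a separate model per pair. Adjustment was by Benjamini-Hochberg across 5246 genes, and calls had an adjusted p under 0.05. SGCE and TFPI2 have no test. The study tested pairs with SAM, per the series design text, and limma took its place. The code was tested on simulated data. Depth is unknown, and precision rests on having 5 arrays a pair.

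The genes and lists were chosen with earlier results of these data known. Named by rule were the measured neighbours of the human-order list, up to 4 called members of each other gene list by size, and the 5 genes of highest r to SGCE and to TFPI2. Further genes, such as those of the marker lists and the wider window, were named outside this rule. Only SGCE, TFPI2 and the genes named by rule were carried through the alternatives and the screen for outlying arrays. SGCE and TFPI2 have a single probe each, so their values per probe equal those given. Alternatives are given at the end.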

Additional observations from a re-analysis of the deposited data

Results flagged for a closer look

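Among 99 sets of 5 arrays of SGCE, TFPI2 and the genes named by rule, 5 held an array far from the other 4, with a gap to the nearest above 0.71 of the whole range. Chance gives about 1 in 20 sets. None belonged to SGCE or TFPI2. DYNC1I1 was at -0.96 on replicate 1 of P114 over CMT-U335, the nearest other value being 0.15. SLC25A13 was at -0.27 on replicate 4 of CMT-U229 over CMT-U335, against 0.06. PROS1 was at -2.74 on that same array, against -3.27. HIBADH was at -0.066 on replicate 3 of P114 over CMT-U229, against -0.40. TAMM41 was at -0.66 on replicate 2 of CMT-U229 over CMT-U335, against -0.40.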

How the results depend on the processing

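The mean ratios of SGCE and TFPI2 moved by less than their SD under each of 14 alternatives. Without single arrays SGCE had means of -2.69 to -2.56 (P114 over CMT-U335), -1.06 to -0.95 (P114 over CMT-U229) and -1.57 to -1.52 (CMT-U229 over CMT-U335). TFPI2 ranged from -2.67 to -2.27, from 0.13 to 0.49 and from -2.92 to -2.73.

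Counts of called genes were 1169 in P114 over CMT-U335, 383 in P114 over CMT-U229 and 910 in CMT-U229 over CMT-U335. The loop fit gave 1757, 1056 and 1445, with 14 list genes called in P114 over CMT-U229 and 11 in CMT-U229 over CMT-U335. One fit over 15 arrays gave 650 in P114 over CMT-U229. A threshold of 0.01 gave 642, 159 and 470, and 0.1 gave 578 in P114 over CMT-U229. With apparent dye swaps averaged, which leaves 3 values a pair, 79 genes and 1 list gene were called in P114 over CMT-U229, and 410 and 4 in CMT-U229 over CMT-U335. Couples in P114 over CMT-U335 were unclear, and 925 genes were called. Without single arrays the counts ranged from 835 to 1031, from 202 to 408 and from 571 to 863, and list genes from 8 to 12, from 3 to 8 and from 4 to 6. The low counts in P114 over CMT-U229 came without replicate 1 (202), 2 (224), 3 (235) or 5 (223), and in CMT-U229 over CMT-U335 without replicate 2 (586) or 5 (571). Testing each of 22176 probes by itself called 2289, 754 and 1826 probes.

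With the replicate number as a block, 1172, 515 and 920 genes were called. Deviations of same-numbered arrays correlated at -0.25 to 0.33, which showed no clear pairing of arrays by number. Pairing is not excluded by this, since noise of single arrays could hide it. CMT-U229 is the second line of P114 over CMT-U229 and the first of CMT-U229 over CMT-U335, so a shared sample would correlate negatively there.

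By root mean square difference 1 of the 5 genes closest to SGCE and 2 of the 5 closest to TFPI2 were the same, and by Spearman's rho 2 and 1.

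Among the genes named by rule 49 values were called, of which 22 were no longer called under some alternative and 0 changed sign. The other genes given in the text were not followed in this way. Of 44 values not called 12 changed sign, all near 0 or widely scattered. A dye term gave -0.048 for DYNC1I1, -0.0066 for SLC25A13 and 0.098 for TAC1 in P114 over CMT-U335. For the same pair the loop fit gave -0.0078 for SLC25A13 and 0.16 for TAC1, and averaged swaps gave -0.15 for DYNC1I1, -0.00076 for SLC25A13 and 0.63 for TAC1. In CMT-U229 over CMT-U335 SNTB2 was at -0.053 in the loop fit and -0.044 with averaged swaps, which put MBD2 at 0.081. Without single arrays of P114 over CMT-U335 PON3 ranged from -0.13 to 0.10, DYNC1I1 from -0.10 to 0.26, SLC25A13 from -0.013 to 0.031, BET1 from -0.17 to 0.017, PON1 from -0.011 to 0.061 and TAC1 from -1.04 to 0.56. In P114 over CMT-U229 TAMM41 ranged from -0.041 to 0.045, SEM1 from -0.055 to 0.29, ASNS from -0.73 to 0.075 and PROS1 from -0.086 to 0.23. In CMT-U229 over CMT-U335 SNTB2 ranged from -0.074 to 0.087 and MBD2 from -0.15 to 0.082. The causes were not tested.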

Other observations

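Chromosome 14 as a whole held 80 measured genes besides SGCE and TFPI2. Of these, 15 (18.8%) fell and 1 rose in CMT-U229 over CMT-U335, where 8.58% of all genes fell and 8.77% rose. The pair P114 over CMT-U335 had 15 that fell (18.8%) and 4 that rose, where 14.4% fell and 7.89% rose. The pair P114 over CMT-U229 had 1 that fell and 6 that rose (7.5%), where 3.98% fell and 3.32% rose. The medians of the 80 genes were -0.05, -0.03 and 0.01 in that order, beside -0.0050, -0.02 and -0.01 over all genes. The 80 genes include the 25 of the window of 40 genes on each side, so these counts are not separate from those above. That window held 7 of the falls in CMT-U229 over CMT-U335 and 5 of the rises in P114 over CMT-U229. In P114 over CMT-U335 it held 4 of the falls and 3 of the rises. The shares for the chromosome were not tested, and both comparisons that show the falls share the RNA of CMT-U335.

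By size as well as shape, the genes nearest to SGCE over the 15 arrays were NXPE3, the cyclophilin gene PPIC and the small heat shock gene HSPB8, at root mean square differences of 0.636, 0.645 and 0.687. NXPE3 was at -1.84 ± 0.086 (SE) in P114 over CMT-U335, -0.75 ± 0.14 in P114 over CMT-U229 and -1.12 ± 0.083 in CMT-U229 over CMT-U335. Nearest to TFPI2 were the actin-bundling gene PLS3 (0.56), PCOLCE (0.64) and the mitochondrial deacylase gene SIRT5 (0.65). PLS3 was at -2.25 ± 0.17, 0.42 ± 0.17 and -2.55 ± 0.13 in the same pairs. ING3, a reader of histone marks whose gene also lies on chromosome 14, ranked 5 by this measure for TFPI2, at -1.69 ± 0.13, 0.76 ± 0.19 and -2.52 ± 0.15.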
